A study of Mus musculus with 5 samples.

Results

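The comparison described here sets 1 array of mouse embryonic stem cells (ESCs) named 2i against 1 array of ESCs named S, which are 2 of the 5 arrays of the study. The study concerned the derivation of female ESCs in the ground state and their gamete-derived DNA methylation, and its other 3 arrays were of mouse embryonic fibroblasts (MEFs) named 2n 2i, 4n 2i and control. The 2i and S cells were both labelled as ES cells from F1 mice of 129X1/SvJ and MSM/Ms, and the labels record no further allele, agent, passage or age for either. Their titles carried the number 15 for the 2i array and 36 for the S array. The labels do not spell out S, 2n or 4n, and these are used as names only. Whether the numbers 15 and 36 are separate lines of cells is not stated, so the group and whatever else differed between these cultures cannot be told apart. With 1 array a side there was no replicate and no test, and every difference below compares these arrays, not the conditions.

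Culture in 2i commonly combines an inhibitor of MEK, the kinase that switches on ERK, with an inhibitor of GSK3, a kinase that keeps beta-catenin low and restrains many biosynthetic enzymes. Mouse ESCs kept in such a medium hold a state near that of the early epiblast, with a weak ERK signal and little priming towards the later lineages. ERK signalling also feeds into ribosome production, amino acid uptake and protein synthesis in growing cells, and the gene groups below include such genes. Whether ERK signalling had a part in any difference below was not tested.

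Values were deposited intensities, analysed per gene as log2(intensity + 1), and a positive difference means a higher value on the 2i array. Comparing a gene required that its brighter ESC value be at or above a floor, set for each array at the median of its 1-gene probe sets (241.2 units on the 2i array and 242.1 on the S array). This left 10461 of 19938 measured genes. On the 2i array 292 of them (2.79%) were at least 2-fold higher and 266 (2.54%) at least 2-fold lower. Over all genes compared, 45.1% were higher by any amount and 54.9% lower, the median difference was -0.04, and the middle 50% of genes lay between -0.26 and 0.21. Only 49 genes were at least 4-fold higher and 43 at least 4-fold lower. For 144 of the higher and 149 of the lower genes the dimmer array lay under its floor, so the size of the fold there depends on an unknown part of background. With genes ordered by mean brightness on both ESC arrays into 10 equal bins, the dimmest held 8.4% higher and 8.98% lower calls. The brightest held 0.382% and 0.0956%, and the median difference of each bin lay between -0.06 and 0.01. The dimmest bin ran from a mean of 101 to 275 units. A gene with a mean under the floor was compared only if its 2 values differed, so part of the excess there follows from the floor rule.

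**Figure D1:**
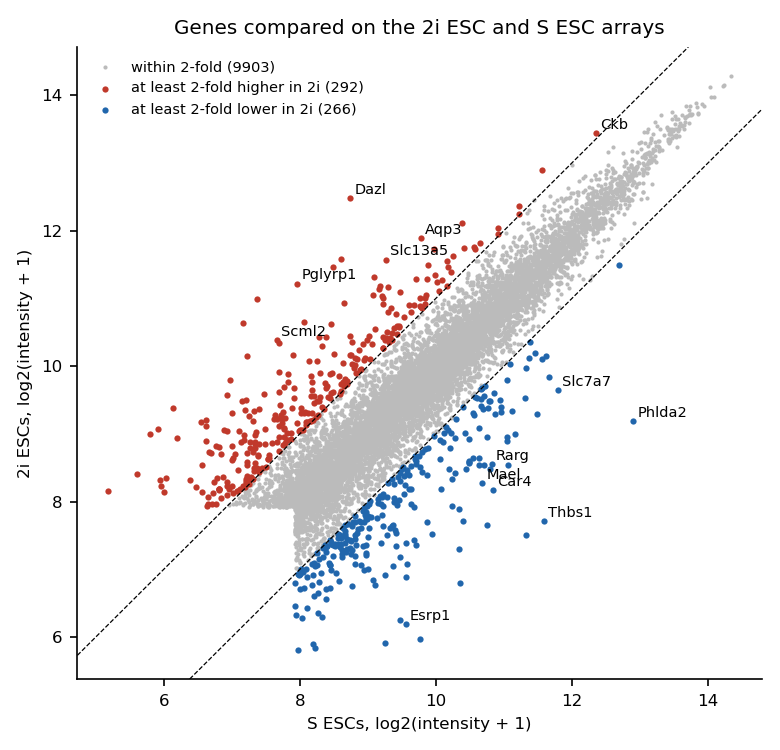
Intensity of each of the 10461 compared genes on the S array (horizontal axis, log2 of intensity plus 1) and on the 2i array (vertical axis, same scale), 1 point a gene, with dashed lines at 2-fold. The 292 higher genes lie above the upper line and the 266 lower genes below the lower line, and most of both lie in the dimmer part of the range.

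Both arrays carried the marker genes of pluripotent cells. Each of the 12 markers was past the floor on both, and their summed intensity was 74314 on the 2i array and 79825 on the S array. The exception in level was Lin28a, an RNA-binding protein that blocks let-7 maturation, at 673 against 1988 units (log2 difference -1.56). Fibroblast markers summed to 2659 units on the 2i array and 4058 on the S array, against 84291 to 100237 on the MEF arrays. Of the 14, 4 were past the floor on the 2i array and 7 on the S array, and the matrix proteoglycan gene Dcn, the homeobox gene Prrx1 and the cadherin gene Cdh11 were the 3 that differed 2-fold or more, being lower on the 2i array. In RNA from a whole culture, fewer cells of a type and less RNA per cell cannot be told apart.

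The gene groups were of 3 kinds: groups in which nearly every member shifted a little, groups in which a few members differed widely, and groups close to the background. Of 105 groups and families, 94 had at least 8 compared members, and 17 of these held no member past 2-fold. The median of 15 groups lay above 0.2 and that of 12 below -0.2. Together the groups held 3440 of the 10461 genes compared and 254 of the 558 genes past 2-fold.

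**Figure D2:**
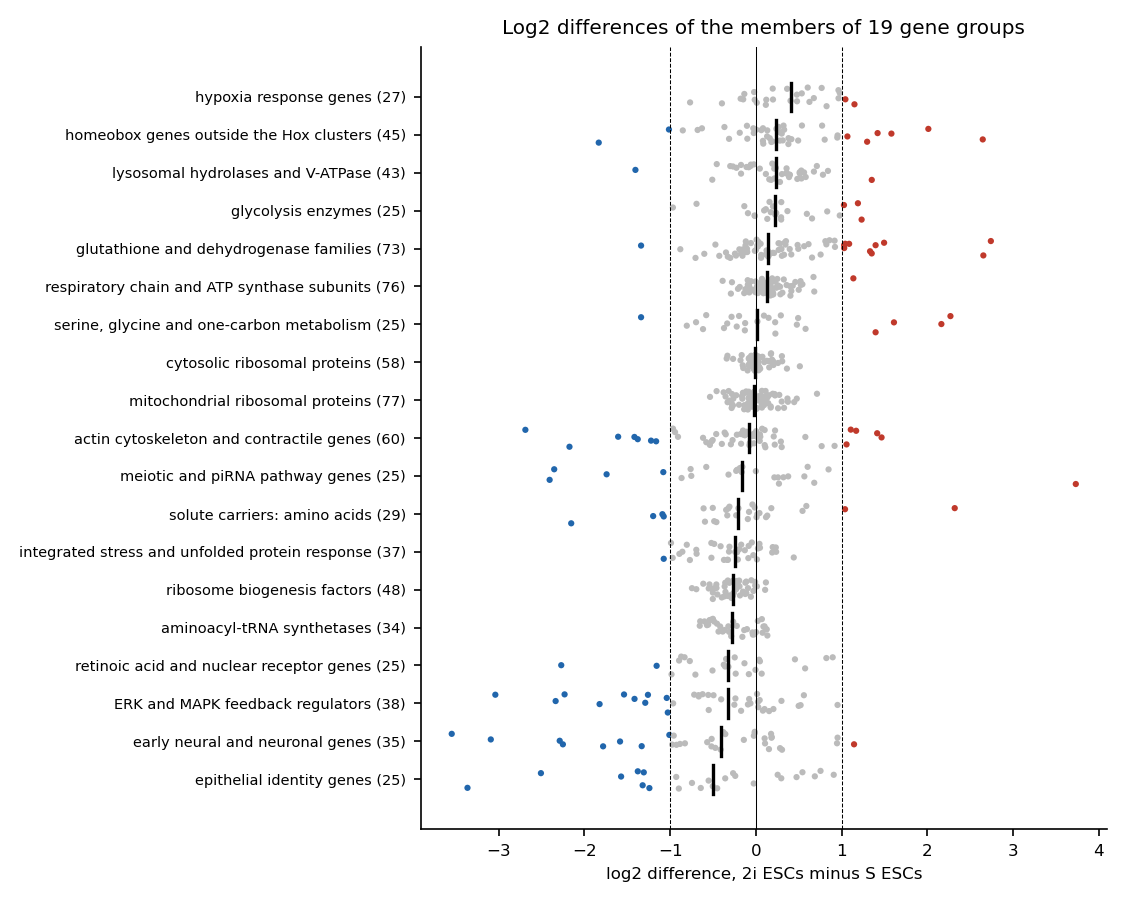
Log2 difference (2i minus S, horizontal axis) of every compared member of 19 gene groups, 1 point a gene, with the number of compared members in parentheses and the group's median as a black bar. Red points are at least 2-fold higher, blue points at least 2-fold lower, and dashed lines mark 2-fold. Medians run from 0.40 for the hypoxia response genes to -0.50 for the epithelial identity genes, and the ribosome biogenesis factors are a narrow group below 0 with no member past 2-fold.

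Genes for building ribosomes were lower on the 2i array almost throughout, by small amounts, while the genes for the ribosome's own proteins were not. Ribosome biogenesis factors, the nucleolar enzymes and assembly proteins that make and process ribosomal RNA, were lower in 45 of 48 compared members (93.8%, against 54.9% of all genes), with a median of -0.27 and no member past 2-fold. The ribosomal RNA methyltransferase gene Ftsj3 read 1071 on the 2i array and 1796 on the S array (-0.75). Polr1a, the largest subunit of RNA polymerase I, which transcribes ribosomal RNA, read 1583 against 2562 (-0.69). The nucleolar helicase gene Ddx21 read 3659 against 5357 (-0.55). Each of these was lower on the 2i array by less than 2-fold. The members above 0 were Mrto4, Fbl and Rrp9, which lay between 0.01 and 0.12. The 58 compared genes of cytosolic ribosomal proteins had a median of -0.01, with 26 above 0 and 32 below, and the 77 of mitochondrial ribosomal proteins a median of -0.02.

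Most enzymes that load amino acids onto transfer RNA in the cytosol were lower on the 2i array as well. The 34 genes of the aminoacyl-tRNA synthetase list, which includes the scaffold genes Aimp1 and Aimp2, had a median of -0.28 and none past 2-fold. The cytosolic enzymes were lower in 15 of 16 genes with a median of -0.47, and the mitochondrial enzymes in 9 of 16 with a median of -0.03. This division was made after the values were seen. The asparagine enzyme gene Nars read 3742 on the 2i array and 5892 on the S array (-0.65), and the threonine enzyme gene Tars 1284 against 2016 (-0.65). The seryl enzyme gene Sars (2965 against 4495) and the leucyl enzyme gene Lars (2911 against 4324) were also lower. The glutamine enzyme gene Qars was the cytosolic exception at 4619 against 4230 (0.13).

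Targets and parts of the integrated stress response, which raises amino acid supply when it is short, lay on the same side. Of 37 compared genes of this response and of the unfolded protein response, 28 were below 0 (75.7%), with a median of -0.24 (-0.14 with a floor at the 75th percentile). The glycine carrier gene Slc6a9 was the 1 member past 2-fold, at 739 against 1559 units (-1.08). Chac1, which degrades glutathione, read 812 against 1592 (-0.97), Trib3, a pseudokinase of the response, 318 against 592 (-0.89), and Ddit3, its transcription factor CHOP, 356 against 646 (-0.86). Atf4, which encodes the response's central transcription factor, read 552 against 792 (-0.52). Asns, asparagine synthetase and a known target of ATF4, was on the other side at 10945 against 9316 units (0.23).

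**Figure D3:**
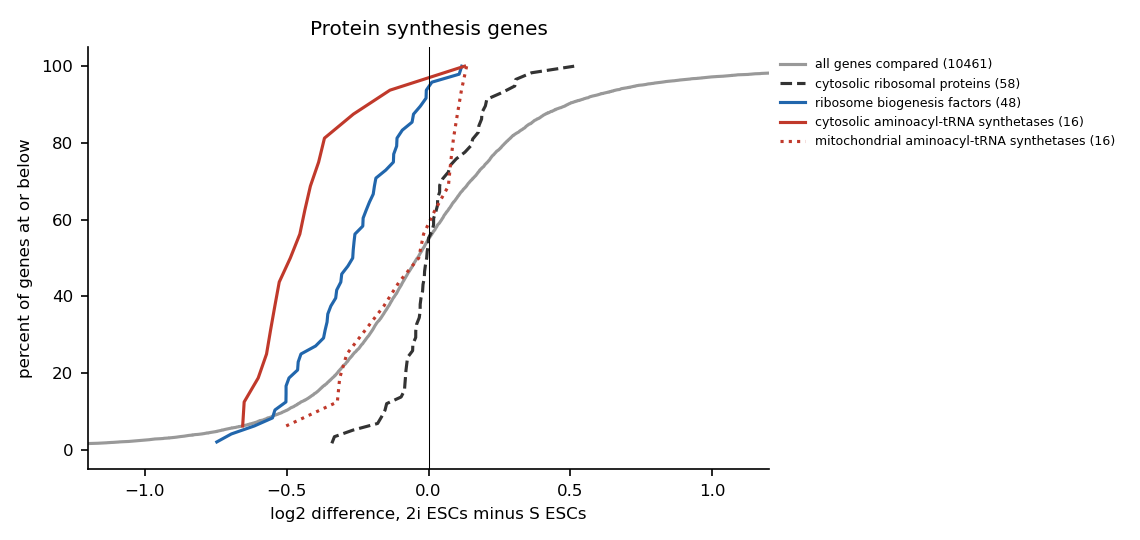
Percent of genes (vertical axis) at or below each log2 difference (horizontal axis, 2i minus S) for all 10461 compared genes and for 4 groups of protein synthesis genes, with group sizes in parentheses. The curves of the ribosome biogenesis factors (median -0.27) and of the cytosolic aminoacyl-tRNA synthetases (median -0.47) stand to the left of all genes, and the ribosomal protein and mitochondrial synthetase curves cross the middle near 0.

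Amino acid carriers differed in both directions. Of 29 compared members, 4 were at least 2-fold lower (13.8%), 2 higher (6.90%), and the median was -0.20 (0.00382 with no floor). Slc7a7, a light chain that exports cationic amino acids, read 797 on the 2i array and 3552 on the S array (-2.15). Slc38a2, the main sodium-coupled carrier of neutral amino acids, read 2880 against 6612 (2.30-fold lower). The glutamate carrier gene Slc1a3 read 135 against 288 (-1.09). On the other side, Slc1a1, a second glutamate carrier, read 712 against 142 units (2.32), and Slc7a8, a light chain that exchanges neutral amino acids, 582 against 283 (1.04). These glutamate carriers thus stood on opposite sides.

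Bhmt, Bhmt2 and Dmgdh, which belong to methionine and choline breakdown, were past the floor on the 2i array alone. Bhmt and Bhmt2 are methyltransferases that remake methionine from homocysteine, Bhmt with betaine and Bhmt2 with S-methylmethionine, and Dmgdh is the mitochondrial enzyme that breaks down the dimethylglycine that Bhmt leaves. Bhmt read 392.2 units on the 2i array, 128 on the S array and 97.0 on each MEF array (2i minus S 1.61). Bhmt2 read 531 on the 2i array, 118 on the S array and 77.2 on each MEF array (2.16). Dmgdh read 473 on the 2i array, 97.1 on the S array and 92.7 on each MEF array (2.27). Bhmt has 2 further probe sets, whose differences were 0.12 and 1.54, so the size of its difference depended on the probe set.

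The other genes of one-carbon metabolism, in which folate carries single carbons between serine, glycine and nucleotides, differed in both directions. The cytosolic formyl-tetrahydrofolate dehydrogenase gene Aldh1l1 read 1286 against 488 (1.40), and its mitochondrial counterpart Aldh1l2 read 170 against 432 (-1.34). Mthfd2, the mitochondrial enzyme that supplies formate in growing cells, read 2271 against 3972 (-0.81), and Phgdh, the first enzyme of serine synthesis, 569 against 737 (-0.37). Over the whole group 4 of 25 were at least 2-fold higher (16%) and 1 lower (4%), and the median was 0.02, with 13 above 0 and 12 below. With the floor required on both arrays, 1 of 21 was higher and 0 lower, and the median was -0.12.

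**Figure D4:**
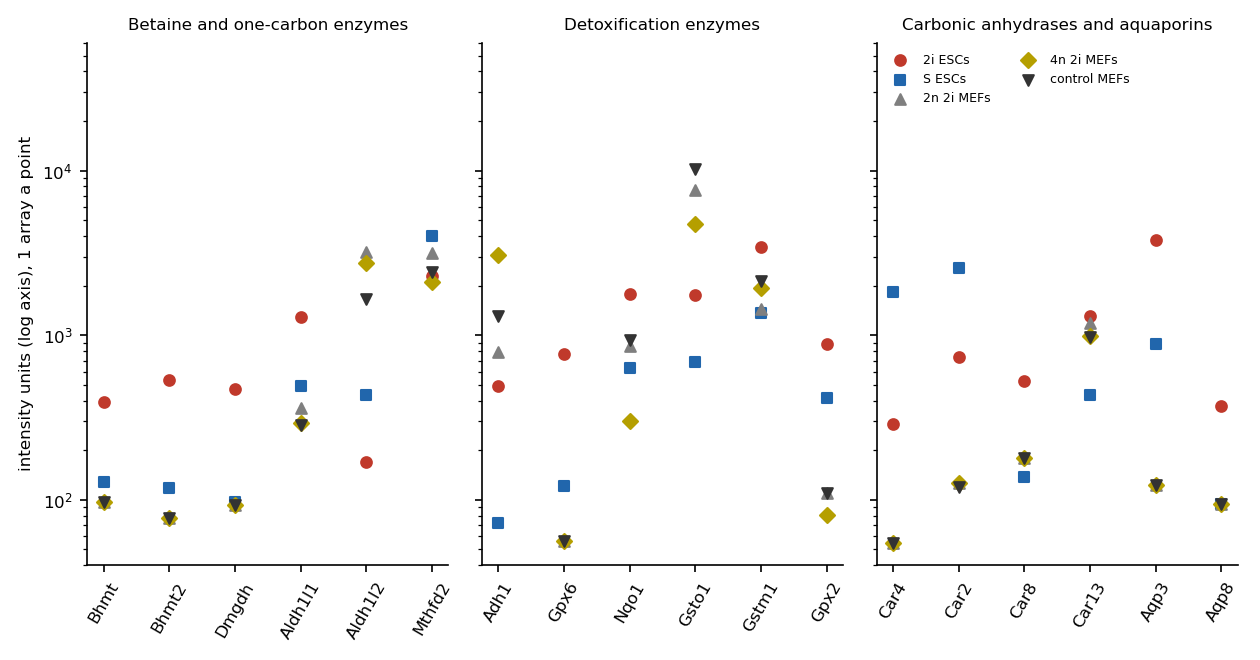
Intensity (vertical log axis) of 6 genes in each of 3 groups on each of the 5 arrays, 1 point an array. Bhmt, Bhmt2 and Dmgdh lie above 390 units on the 2i array alone, Aldh1l1 and Aldh1l2 differ in opposite directions between the ESC arrays, and Car4 and Car2 are higher on the S array while Car8, Car13, Aqp3 and Aqp8 are higher on the 2i array.

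Bhmt2 and Dmgdh are neighbours that are read in opposite directions from starts 134 bases apart, and their shared stretch is shown because both were past 2-fold in the same direction. Starts facing away from each other within 1000 bases were found for 406 pairs of compared genes, 9 of which held a gene past 2-fold. Over all genes compared 2.79% were at least 2-fold higher and 2.54% lower, so genes past 2-fold were rarer in these pairs. Both genes were past 2-fold in 3 pairs, each time higher on the 2i array, and in 0 pairs were they on opposite sides. The second pair was Ostf1, an osteoclast signalling adaptor (1392 against 515 units), and Nmrk1, a nicotinamide riboside kinase of NAD synthesis (816 against 240), with differences of 1.43 and 1.76. The third was the calcium-binding protein genes S100a1 (2830 against 358) and S100a13 (947 against 226), with differences of 2.98 and 2.06. The bases between the starts are given on the plus strand of GRCm38.p6 from RefSeq, at chr13:93674303-93674435, chr19:18631814-18632015 and chr3:90514331-90514434, with CpG sites in capitals.
Bhmt2 and Dmgdh: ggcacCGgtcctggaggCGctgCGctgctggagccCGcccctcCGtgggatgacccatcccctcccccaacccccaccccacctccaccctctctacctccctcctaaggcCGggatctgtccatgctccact
Ostf1 and Nmrk1: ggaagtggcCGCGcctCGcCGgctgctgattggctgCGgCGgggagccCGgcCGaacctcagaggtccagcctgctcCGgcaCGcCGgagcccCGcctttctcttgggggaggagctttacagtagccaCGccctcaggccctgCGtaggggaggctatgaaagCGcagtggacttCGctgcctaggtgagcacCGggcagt
S100a1 and S100a13: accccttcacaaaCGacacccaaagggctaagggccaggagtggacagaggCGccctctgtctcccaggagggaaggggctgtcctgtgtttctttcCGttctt
The first stretch held 6 CpG sites in 133 bases, the second 17 in 202 and the third 3 in 104.

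Detoxification enzymes were higher on the 2i array more often than all genes. Of 73 compared genes of the glutathione S-transferase, glutathione peroxidase, aldehyde dehydrogenase and alcohol dehydrogenase families and their partners, 10 were at least 2-fold higher (13.7%) and 1 lower (1.37%), and the median was 0.14. With the floor required on both arrays, 7 of 62 were higher and 0 lower, and the median was 0.06. Adh1, an alcohol dehydrogenase that also oxidises retinol, read 490 units on the 2i array and 72.3 on the S array (2.74). The peroxidase gene Gpx6 read 764 against 120 (2.65), and Nqo1, a quinone reductase and a known target of NRF2, 1772 against 627 (2.82-fold). On the MEF arrays Adh1 read 783 to 3053 units and Gpx6 56.3 on each. The omega-class transferase gene Gsto1 read 1741 against 681 (1.35) and the mu-class gene Gstm1 3434 against 1363 (1.33). All 7 compared Gstm genes were above 0 with a median of 0.86, but they are close copies whose probes may share signal. Aldh1l1, given above, was also counted among the higher members, and Aldh1l2 was the lower one. Aldh3a1, Gstp3, Gstm3 and Gpx2 lay at 1.03 to 1.09, of which Aldh3a1 and Gstp3 fell within 2-fold under some alternative settings. The letters TGACNNNGC (N for any base), an antioxidant response element, were searched in the promoters of this group. They stood before 6 of the 63 genes with a promoter entry (9.52%) and before 11.9% of all 8441 compared genes with one. All 6 lay within 2-fold, so in this window the letters were not found before Nqo1 or any other higher member with an entry. Bases further upstream were not searched, so an element there would be missed. A part of NRF2 in these differences was not tested.

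Genes of glycolysis and of the response to low oxygen were shifted upwards. Of 25 compared glycolysis genes 19 were above 0 (76.0%, against 45.1% of all genes), with a median of 0.23. Eno2, an enolase, read 716 against 304 units (1.23), Pdk3, a kinase that holds back pyruvate dehydrogenase, 3458 against 1514 (1.19), and Ldhb, a lactate dehydrogenase subunit, 3933 against 1928 (1.03). Pdk3 lies on the X chromosome, whose 367 compared genes had a median of 0.29. Without X-linked genes the glycolysis median was 0.20. Of 27 compared hypoxia response genes 20 were above 0 (74.1%), with a median of 0.40 (0.24 with no floor). Ndrg1, a stress-induced growth regulator, read 5278 against 2377 (1.15) and Car12, a membrane carbonic anhydrase, 347 against 168 (1.04). Just under 2-fold stood P4ha1, a collagen prolyl hydroxylase (1576 against 807), Ak4, a mitochondrial adenylate kinase (7986 against 4094), and Bnip3, a mitophagy receptor (4419 against 2494). The genes of the oxygen-sensing factors themselves were not higher, as Hif1a read 2549 against 2823 (-0.15) and Epas1 1791 against 3051 (-0.77). Glucose carrier gene Slc2a1 read 11521 against 10031 (0.20).

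The letters ACGTG, the core that hypoxia-inducible factors recognise, were searched on both strands in the 250 bases before the first listed start. They stood before 14 of the 23 hypoxia response genes with a promoter entry (60.9%) and before 1938 of all 8441 compared genes with one. The 14 had a median difference of 0.38 with 13 above 0, and the 9 without had a median of -0.01 with 4 above 0. The promoters of P4ha1 and Bnip3 are shown as higher members that hold the core, read from RefSeq on GRCm38.p6 in the direction of the gene at chr10:59323046-59323295 (plus strand) and chr7:138909507-138909756 (minus strand), with the match in capitals.
P4ha1: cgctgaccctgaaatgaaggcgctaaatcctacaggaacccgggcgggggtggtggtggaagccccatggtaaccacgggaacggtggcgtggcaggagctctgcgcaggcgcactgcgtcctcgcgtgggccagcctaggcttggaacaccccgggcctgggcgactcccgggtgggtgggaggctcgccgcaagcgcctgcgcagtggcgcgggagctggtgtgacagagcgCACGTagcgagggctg
Bnip3: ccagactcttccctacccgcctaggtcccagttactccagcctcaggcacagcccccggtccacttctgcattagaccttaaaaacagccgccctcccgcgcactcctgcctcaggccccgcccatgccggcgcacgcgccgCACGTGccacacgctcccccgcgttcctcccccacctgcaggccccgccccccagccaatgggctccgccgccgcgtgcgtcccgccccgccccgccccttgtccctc
The match before Bnip3 is the palindrome CACGTG, which holds the core on both strands. A match is a description of letters, not a site of binding.

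The groups of the respiratory chain and the citric acid cycle were also above the background, by small amounts. Subunits of the chain and of ATP synthase were above 0 in 56 of 76 compared genes (73.7%), with a median of 0.13 and 1 past 2-fold. That gene was Uqcrh, the hinge protein of complex III, at 4222 on the 2i array against 1918 on the S array (1.14). Complex I had 28 of 34 genes above 0 and complex IV 9 of 10, whereas complex III had 4 of 9. In the citric acid cycle group, which also took in related enzymes, 18 of 27 were above 0, with a median of 0.11. Its 1 member past 2-fold was such a related enzyme, Me1. This cytosolic malic enzyme that makes NADPH read 2493 against 832 (1.58). Pdha1, an X-linked subunit of pyruvate dehydrogenase, read 4234 against 2748 (0.62), and Idh1, the cytosolic isocitrate dehydrogenase, 3475 against 2017 (0.78). Fbp2, a fructose bisphosphatase, read 967 units on the 2i array, 207 on the S array and 91.0 on the MEF arrays (2.22). The citrate importer gene Slc13a5 read 3042 against 615 (2.31), and the neighbouring genes Xaf1 and Fbxo39 were past 2-fold with it, at 1.88 and 1.41. Ckb, the cytosolic creatine kinase that buffers ATP, read 11078 against 5215 (1.09).

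Lysosomal genes were mostly higher on the 2i array by small amounts. Of 43 compared hydrolases, membrane proteins and proton pump subunits 30 were above 0 (69.8%), with a median of 0.23 (0.36 with a floor at the 75th percentile). Hexa, the alpha chain of hexosaminidase, read 2586 against 1012 (1.35), the cathepsin gene Ctsb 3026 against 1688 (0.84), and the palmitoyl thioesterase gene Ppt1 2201 against 1279 (0.78). The tetraspanin gene Cd63, of late endosomes and lysosomes, read 3397 against 1000 (1.76). A pump subunit of specialised epithelia, Atp6v0a4, was the 1 member at least 2-fold lower, at 108 against 289 units (-1.41). The letters CACGTG, contained in the element that the factors TFEB and TFE3 recognise, stood before 9 of 34 lysosomal genes with an entry (26.5%) and 8.94% of all genes. The median difference was 0.30 with the match, with 7 of 9 above 0, and 0.23 without it, with 17 of 25 above 0. Lamp1, a lysosomal membrane protein (5569 against 4258, 0.39), holds 4 copies, and Atp6v0b, a proton pump subunit (2556 against 1708, 0.58), holds 2. Their promoters are printed to show the repeated letters, from RefSeq on GRCm38.p6 at chr8:13158911-13159160 (plus strand) and chr4:117887330-117887579 (minus strand).
Lamp1: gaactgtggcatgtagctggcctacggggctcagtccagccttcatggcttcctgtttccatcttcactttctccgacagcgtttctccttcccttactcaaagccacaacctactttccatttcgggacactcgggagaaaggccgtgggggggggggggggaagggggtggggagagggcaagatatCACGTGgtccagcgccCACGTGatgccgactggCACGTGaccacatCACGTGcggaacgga
Atp6v0b: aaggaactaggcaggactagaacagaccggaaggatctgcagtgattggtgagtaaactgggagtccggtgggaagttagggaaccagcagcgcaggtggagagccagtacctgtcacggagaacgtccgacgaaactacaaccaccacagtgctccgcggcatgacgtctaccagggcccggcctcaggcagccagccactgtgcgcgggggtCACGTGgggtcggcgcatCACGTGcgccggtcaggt

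Carbonic anhydrases and aquaporins, which move carbon dioxide, protons and water, were the group with the largest share past 2-fold among those with at least 10 compared members. Of 14 compared members 5 were higher (35.7%) and 3 lower (21.4%), and with the floor required on both arrays 2 of 6 were higher and 2 lower. The membrane-bound Car4 read 288 on the 2i array and 1830 on the S array (-2.66), the cytosolic Car2 738 against 2544 (-1.78) and Car3 86.8 against 242 (-1.47). Car8, a member without enzyme activity, read 524 against 137 (1.93) and the cytosolic Car13 1308 against 433 (1.59). The water and glycerol channel gene Aqp3 read 3807 against 877 (2.12) and Aqp8 371 against 93.8 (1.97). Car4, Car2, Aqp3 and Aqp8 were under the floor on all 3 MEF arrays. The directions within the family were thus mixed.

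Germline and early embryo genes were divided. Dazl, an RNA-binding protein of germ cells, had the highest difference of the genes named here at 3.73, with 5692 units on the 2i array, 427 on the S array and 30.2 on each MEF array. Of 25 compared meiotic and piRNA pathway genes it was the only 1 at least 2-fold higher, and 4 were lower (2 with the floor required on both arrays). Mael, of the piRNA pathway, read 309 against 1641 (-2.41), Sycp3, of the synaptonemal complex, 163 against 836 (-2.35), and Zcwpw1, a histone reader of meiosis, 134 against 449 (-1.74). Among Dppa and other early embryo genes 4 of 20 were higher (20.0%) and 0 lower, or 1 of 16 with the floor required on both arrays. The PRAME-like genes Pramel7 (885 against 125, 2.82) and Pramel6 (553 against 97.5, 2.49) led them, before the autophagy receptor Calcoco2 (1376 against 309, 2.15) and Nlrp4f (873 against 225, 1.95). The other compared PRAME-like genes, Pramel12 and Pramel13, differed by 0.28 and 0.47.

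Homeobox genes outside the Hox clusters were above 0 in 33 of 45 compared genes (73.3%), with a median of 0.24 (0.08 with a floor at the 75th percentile). The TALE-class genes Meis2 (1298 against 206, 2.65) and Pknox2 (645 against 159, 2.01) were highest, followed by the forebrain gene Hesx1 (281 against 93.2, 1.58) and the eye gene Vax2 (1146 against 427, 1.42). Prrx1 (93.2 against 335, -1.83) and Gbx2 (323 against 653, -1.01), a target of LIF and STAT3, were the 2 lower members. Most of these genes were dim, with a group median of 307 units on the 2i array and 271 on the S array. With the floor required on both arrays 25 of the 45 remained and 1 of them was past 2-fold in each direction. Genes of microRNA precursors were above 0 in 29 of 30 compared members, with a median of 0.25 (0.07 with no floor) at a median of 357 against 301 units. The largest was Mir15a, at 525 against 120 units (2.12). Array probes on so short a precursor do not measure the mature microRNA.

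Immune and surface genes included some of the largest single differences. Pglyrp1, a secreted protein that binds bacterial peptidoglycan, read 2379 units on the 2i array, 248 on the S array and 117 to 120 on the MEF arrays (3.26). In the group of innate immune receptors 4 of 8 compared members were at least 2-fold higher (1 of 5 with the floor required on both arrays) and 0 lower, the others being Nlrp4f, the lectin gene Clec4a1 (788 against 207, 1.92) and the Fc receptor gene Fcgr3 (422 against 148, 2.83-fold). The class II genes H2-Eb1 (598 against 196, 1.61) and H2-Ab1 (327 against 116, 1.49) were higher as well. Of the 6 listed macrophage markers, 1 was past the floor on each ESC array, and their summed intensity was 801 on the 2i array and 848 on the S array. Of only 7 compared pigment cell genes 3 were at least 2-fold higher. They were Gpr143, an X-linked receptor of melanosomes (667 against 69.1, 3.25), the melanosome fibril gene Pmel (665 against 259, 1.36) and the exchanger gene Slc24a5 (249 against 99.7, 1.31). Rab27a, which tethers melanosomes, read 630 against 838 (-0.41), while the probe sets of the factor gene Mitf disagreed (984 against 501, 0.97, and another at -0.08). Il6ra, the receptor chain for interleukin 6, read 669 against 235 (2.83-fold).

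Members past 2-fold were mostly lower on the 2i array in the groups of ERK response, epithelial and early neural genes. ERK feedback and early response genes, which the pathway itself switches on, were at least 2-fold lower in 10 of 38 compared members (26.3%) and higher in 0, with a median of -0.33 (-0.17 with no floor). With the floor required on both arrays, 4 of 26 were lower. The ETS factor gene Etv4 read 133 against 475 units (-1.82), the growth regulator Myc 543 against 1581 (-1.54) and Jun 255 against 682 (-1.42). The ERK phosphatase gene Dusp6 read 157 against 1297 (-3.04). It was the only 1 of 16 compared dual-specificity phosphatase genes past 2-fold, and 9 of the 16 lay above 0. These 16 were taken by name, whether or not ERK switches them on.

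Genes of epithelial identity were at least 2-fold lower in 7 of 25 (28.0%) with a median of -0.50. The splicing factor gene Esrp1 read 72.1 against 752 (-3.37), the claudin gene Cldn6 372 against 2123 (-2.51), the adhesion gene Epcam 625 against 1861 (-1.57) and the factor gene Grhl2 133 against 347 (-1.38). Among the 12 members past a floor at the 75th percentile the median turned to 0.11, with 4 of them still at least 2-fold lower, and with the floor required on both arrays 4 of 18 were lower. Claudin gene Cldn4 was on the other side, at 3841 against 2276 (0.75). Early neural and neuronal genes were at least 2-fold lower in 8 of 35 (22.9%), with a median of -0.41. With the floor required on both arrays, 2 of 26 were lower and the median was -0.08. They included Crmp1, a mediator of axon guidance (111 against 1306, -3.55), the neurofilament protein gene Ina (201 against 1725, -3.09) and Map2, of dendrites (198 against 596, -1.58), whereas the neurofilament light chain gene Nefl was higher at 3384 against 1529 (1.15).

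Genes of retinoic acid and BMP signalling did not share a direction. Of 25 compared retinoic acid and nuclear receptor genes 2 were at least 2-fold lower (8%) and 0 higher, with a median of -0.32 that was 0.0370 with no floor. Rarg, a retinoic acid receptor, read 374 against 1809 (-2.27) and Crabp2, which carries retinoic acid to the nucleus, 144 against 323 (-1.16), while Crabp1 read 4968 against 3621 (0.46). In the TGF-beta, BMP and activin pathway 3 of 41 were lower, 1 was higher and the median was 0.05. Bmp4 read 493 against 2101 (-2.09) and the activin subunit gene Inhba 77.2 against 260 (-1.74), but Bmp7 was higher at 1211 against 467 (1.37). The GATA factor genes Gata2 (740 against 239, 1.62) and Gata3 (468 against 152, 1.61) were higher, and the forkhead gene Foxp1 (182 against 980, -2.42) lower. Each of these was under the floor on its dimmer array. Among SOX, forkhead and GATA factors 2 of 34 were higher and 5 lower. With the floor required on both arrays, 0 of 25 were higher and 1 lower. The cyclin gene Ccnd2 read 167 against 751 (-2.16).

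Genes of extracellular matrix had 9 of 47 compared members at least 2-fold lower and 1 higher. Of the 9 lower genes 8 were under the floor on the 2i array, and with the floor required on both arrays 1 of 31 was lower. Thbs1, an adhesive glycoprotein, read 209 units on the 2i array, 3079 on the S array and 13193 to 17497 on the MEF arrays (-3.88). The proteoglycan gene Bgn read 181 against 2559 (-3.81) and the glycoprotein gene Tnc 62.1 against 871 (-3.79). The contractile genes Acta2 (208 against 1348, -2.69) and Tagln (99.7 against 306, -1.61) were lower too, and Myl7 (570 against 213, 1.42) and Tagln3 (803 against 290, 1.47) higher. All of the first 5 were several times higher on every MEF array than on either ESC array, and the fibroblast markers given above moved with them. Their part in these differences was not tested.

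Set against the fibroblast arrays, the higher genes were more often bright in ESCs alone. Of the 292 higher genes 150 (51.4%) were past the floor on no MEF array, against 93 of the 266 lower genes (35.0%) and 13.6% of all compared genes. Among the lower genes 110 were brighter on the control MEF array than on either ESC array, and among the higher genes 49. Values were listed as exactly equal on all 3 MEF arrays for 1443 compared genes (13.8%), on both ESC arrays for 7 and on an ESC and a MEF array for 0. How the arrays were scaled to each other is not stated in the labels, so levels on MEF arrays are context only.

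Genes past 2-fold also differed in the sequence before their starts. CpG observed over expected compares the count of CpG sites with that from the C and G content, and low values are typical of promoters that are methylated in the germline. Over the 250 bases before the start its median was 0.75 for all 8441 genes with an entry, 0.52 for the 235 higher genes and 0.60 for the 204 lower genes. Of 2381 genes under 0.6, 141 were higher (5.92%) and 104 lower (4.37%). At or above 0.6 the counts were 94 (1.55%) and 100 (1.65%) of 6060. Genes under 0.6 were also dimmer, with a median intensity over both arrays of 609 against 904 units. Dimmer genes held more calls, in part through the floor rule given above. The part of brightness was not tested. The higher genes past the floor on no MEF array had a median of 0.43 and the lower ones 0.58, against 0.57 for all genes past it on none.

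**Figure D5:**
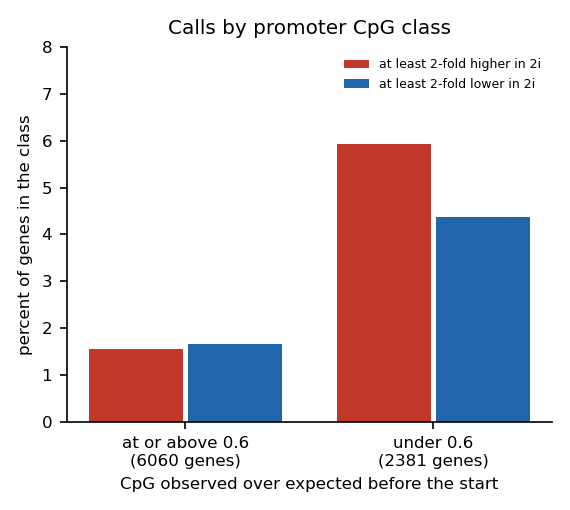
Percent of compared genes (vertical axis) at least 2-fold higher (red) or lower (blue) on the 2i array, for genes whose 250 bases before the start have a CpG observed over expected ratio at or above 0.6 (6060 genes) or under 0.6 (2381 genes). Both bars are taller under 0.6, at 5.92% and 4.37% against 1.55% and 1.65%.

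Single genes at the top of the list differed widely on this scale. Dazl and Pglyrp1 are shown because both were over 9-fold higher and their promoters differ. The windows were read from RefSeq on GRCm38.p6 in the direction of the gene, at chr17:50293621-50293870 (minus strand) and chr7:18884440-18884689 (plus strand), with CpG sites in capitals.
Dazl: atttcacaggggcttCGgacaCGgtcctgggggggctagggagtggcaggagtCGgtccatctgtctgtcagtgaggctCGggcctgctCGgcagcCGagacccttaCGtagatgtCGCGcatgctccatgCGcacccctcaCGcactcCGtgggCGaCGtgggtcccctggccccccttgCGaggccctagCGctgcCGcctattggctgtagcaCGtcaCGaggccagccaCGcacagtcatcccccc
Pglyrp1: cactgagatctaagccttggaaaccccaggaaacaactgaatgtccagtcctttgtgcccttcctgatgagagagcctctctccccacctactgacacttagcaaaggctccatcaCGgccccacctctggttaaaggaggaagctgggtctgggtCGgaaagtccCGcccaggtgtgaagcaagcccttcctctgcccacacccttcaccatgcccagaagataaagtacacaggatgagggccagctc
Dazl had 20 CpG sites and a ratio of 0.71, and Pglyrp1 3 sites and a ratio of 0.16.

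Some genes with differences in the same direction lay next to each other. Runs of at least 3 neighbouring compared genes, each at least 1.5-fold the same way (7.7% of genes were so higher and 7.75% lower), numbered 28 with 97 genes, of which 23 were higher and 5 lower. The X chromosome held 10 of the higher runs, including the longest with 9 genes from Chm to Drp2. It had 43 higher and 7 lower genes of 367 and a median of 0.29, against 249 and 259 of 10094 on the other chromosomes. On the autosomes the higher runs included Bhmt, Bhmt2, Dmgdh and Lhfpl2 on chromosome 13, Gstm6, Gstm3, Gstm2 and Gstm1 on chromosome 3, Rfk, Ostf1 and Nmrk1 on chromosome 19, and Serping1, Ube2l6 and Smtnl1 on chromosome 2. The last holds Ube2l6, the conjugating enzyme for ISG15, at 479 against 143 units (1.73). Rfk, which makes FMN from riboflavin, read 3524 against 2289 (0.62). The run on chromosome 19 thus held 2 enzymes of cofactor synthesis, Rfk and Nmrk1, with Ostf1 between them. The lower runs included Aplp1, Kirrel2 and Nphs1 on chromosome 7, the last 2 encoding partners of the kidney slit diaphragm, each at -1.11, though a second probe set of Nphs1 differed by 0.04. Another joined the imprinted genes Cdkn1c (-0.80), Slc22a18 (-1.52) and Phlda2 (-3.71), of which Phlda2, a growth regulator of the placenta, read 582 units on the 2i array and 7632 on the S array.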

How the data were processed

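Each of the 5 groups had 1 mouse array, for which samples were cut by enzyme and tagged with biotin after RNA extraction on columns, per the labels' protocols. The authors deposited linear intensity values for 28853 probe sets. How they corrected, summarised and normalized these values is, for the authors' intensity table, not given in the sources used. Of the probe sets, 21789 carried 1 gene in the platform table, 1621 several and 5443 none. Symbols were updated by Entrez Gene number to the RefSeq table of GRCm38.p6 (21698 matched). Where a gene had more than 1 probe set (999 genes), its brightest by mean across all arrays stood for it. The pseudocount was 1, the call a 2-fold difference and the floor the median of the probe sets of 1 gene on each array. Values on arrays have no counts behind them, and the number of arrays limits the precision.

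The genes of the comparison were all genes measured, and its gene lists were chosen with earlier results of these data known. Some list patterns were corrected after the files were read, to drop genes that only matched by name. Genes named were the 30 highest and 30 lowest past 2-fold, the 10 largest intensity differences each way, up to 8 members of each group described, and members of runs. Some of these are given in counts only. Genes outside that rule, such as those within 2-fold, were chosen after their values were seen. Promoter sequences came from RefSeq, the first listed start being used for the 1718 genes with several. The counting step was tested on simulated data. Alternatives tried were dropping the floor, raising it to the 75th percentile, quantile normalization of both ESC columns, the mean of a gene's probe sets, a pseudocount of 16, a 3-fold threshold and 2 added later. Scripts ran in Python 3.11.15 with pandas 2.3.3, numpy 2.4.6 and, for plots, matplotlib 3.10.9.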

Additional observations from a re-analysis of the deposited data

How the results depend on the processing

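The counts of 292 genes higher and 266 lower stayed within 1.5 times of these values with no floor (332 and 307), quantile normalization (298 and 268), the mean of a gene's probe sets (289 and 262) and a pseudocount of 16 (274 and 235). They were 120 and 85 with a floor at the 75th percentile, which compares 5299 genes, and 95 and 87 at 3-fold. Alternatives chosen after seeing the data gave 148 and 117 with the floor required on both ESC arrays, and 249 and 259 without X-linked genes. No paired analysis was possible because each group had 1 array, and leaving out an array leaves no comparison. Among groups whose median lay at least 0.1 from 0, its sign turned in these cases, and the cause was not tested. With no floor the medians were 0.0276 for SOX, forkhead and GATA factors, 0.00382 for amino acid carriers, 0.00385 for ciliary genes, 0.0370 for retinoic acid and nuclear receptor genes and 0.0353 for phosphodiesterases. With a floor at the 75th percentile they were 0.0254 for meiotic genes, -0.34 for neurotransmitter receptors, -0.0626 for ABC transporters, -0.14 for collagens, -0.31 for cadherins, 0.11 for epithelial identity genes, 0.17 for ciliary genes and -0.0962 for carbonic anhydrases and aquaporins, over as few as 1 gene. Cadherins had -0.0250 with the floor on both arrays and -0.0250 without X-linked genes. Nearer to 0, the median of the serine, glycine and one-carbon genes was 0.0184, and it ranged from -0.12 to 0.05 with 5 of 7 alternatives above 0. The ribosome biogenesis median stayed between -0.28 and -0.24, that of the aminoacyl-tRNA synthetases between -0.38 and -0.24, of the hypoxia response genes between 0.24 and 0.48, of glycolysis between 0.20 and 0.26 and of the respiratory chain between 0.13 and 0.15 over 7 alternatives. Other medians kept their sign but moved further, between -0.44 and -0.08 for early neural genes, -0.45 and -0.17 for ERK feedback genes, -0.27 and -0.14 for stress response genes, 0.08 and 0.24 for homeobox genes, 0.07 and 0.47 for microRNA precursors, 0.10 and 0.34 for early embryo genes, 0.06 and 0.16 for detoxification enzymes and 0.19 and 0.36 for lysosomal genes. Single genes were followed for 275, the top-ranked genes and every member of any gene group past 2-fold. Genes named only as within 2-fold or only as members of runs were not among them. Of the 275, 23 dropped within 2-fold under at least 1 alternative in which they were still compared, the 3-fold threshold left aside. Only 108 were still compared with a floor at the 75th percentile, and 122 with the floor on both ESC arrays. None changed sign, but a floor, a pseudocount or leaving out X-linked genes cannot turn the sign of a gene's difference. Signal near background limits every fold whose dimmer array lay under the floor.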

Other observations

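Probe sets that could not be given 1 gene were left out of the comparison above, and they hold further differences. Of 800 probe sets of several genes past the floor, 31 (3.88%) passed 2-fold upwards on the 2i array and 8 (1%) downwards. Those whose genes all lie on the X chromosome numbered 33, of which 20 were higher and 0 lower, with a median log2 difference of 2.06. Of 1488 probe sets without a gene name past the floor, 35 were higher (2.35%) and 32 lower (2.15%).

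Iqca, a gene of motile cilia, had the largest disagreement seen between probe sets of a named gene. Its brightest probe set read 2039 units on the 2i array and 165 on the S array (3.62), and its other 3 probe sets differed by 0.06 to 0.37. Slc16a9, a carnitine carrier, had 2 probe sets at 2.16 and 0.18.

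The metallothionein genes also parted. Mt1, which binds zinc and copper, read 7619 on the 2i array against 3014 on the S array (1.34), and its neighbour and close relative Mt2 12851 against 11285 (0.19).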
